A study of Arachis hypogaea with 3 samples.

Results

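The comparison described here sets aerial peanut gynophores against gynophores collected about 3 days after they entered the soil, before the pod begins to swell. Its members were all sequences that carried a description of their best protein match in the NCBI non-redundant protein database (nr) and had an RPKM of at least 10 in the aerial library, the buried library or both. RPKM is reads per kilobase of sequence and per 1000000 reads of the library. In total, 27606 of the 83579 sequences met this rule, which is 33.0% of all sequences and 50.5% of the 54633 with a description. No ratio between the libraries was used to choose them. The members comprised 18473 assembled unigenes and 9133 public peanut sequences.

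The gynophores came from farm-grown Arachis hypogaea plants of the cultivar "Luhua 14". S1 gynophores were aerial, green or purple, and 3 to 5 cm long. S2 gynophores were white, had been below ground for about 3 days, and showed no visible enlargement of the ovary. S3 gynophores grew in the dark and bore pods of 2 to 3 mm, and their values are given only beside those of S1 and S2. A single library of poly(A) RNA was sequenced for each stage on an Illumina HiSeq instrument. The labels state that the terminal 1 cm was taken for protein, and do not state which length of the gynophore or how many plants gave the RNA.

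The gynophore, or peg, is the stalk that grows from the base of the fertilized peanut ovary and carries it downward into the soil. In light the peg elongates and the embryo at its tip stays small. Once the tip is in darkness elongation slows, the green and purple colour is lost, and the ovary turns sideways and swells into a pod. A peg just below the surface therefore meets darkness, mechanical contact, soil microbes and a new supply of water and minerals before any pod is visible.

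The members took 5936245 reads of the S1 library, 5767353 of S2 and 5831779 of S3, or 85.9%, 86.4% and 81.6% of all counted reads. In a sequence of 1000 bases 1 read was worth an RPKM of 0.140 to 0.150. With 1 library per stage there is no replicate, no p-value and no SD. Each RPKM is given where needed with a 95% exact Poisson interval, and each ratio of RPKM with a 95% exact interval, both of which cover counting error only. They compare these libraries and not the stages, since the spread between plants was not measured. A sequence was called higher or lower when the ratio of RPKM + 1 was at least 2 in that direction, a scale that understates changes of low sequences. Fewer cells of a type and less RNA per cell cannot be told apart in such whole-organ samples.

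Most members differed little. At least 2 times higher in S2 were 2126 members (7.7%), at least 2 times lower were 2642 (9.57%), and 22838 (82.7%) were neither. These shares are the background against which each function group below is read. The median log2 ratio of S2 to S1 was −0.05, and the middle 90% of members lay between −1.37 and 1.33. A change of at least 10 times was seen in 155 members upward and 162 downward. Only 40 members had no read in S1 and 19 had none in S2, so the contrast was mainly one of level.

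The members that moved took a visible part of the RNA. Members called higher held 2.63% of the S1 reads, 10.2% of the S2 reads and 7.82% of the S3 reads. Members called lower held 8.59%, 2.51% and 2.21%, respectively. Their median RPKM was 6.13 in S1 and 22.2 in S2 for those called higher, and 23.3 and 7.11 for those called lower. The ratio interval lay wholly past 2 for 1111 members and wholly below 0.5 for 1058.

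**Figure D1:**
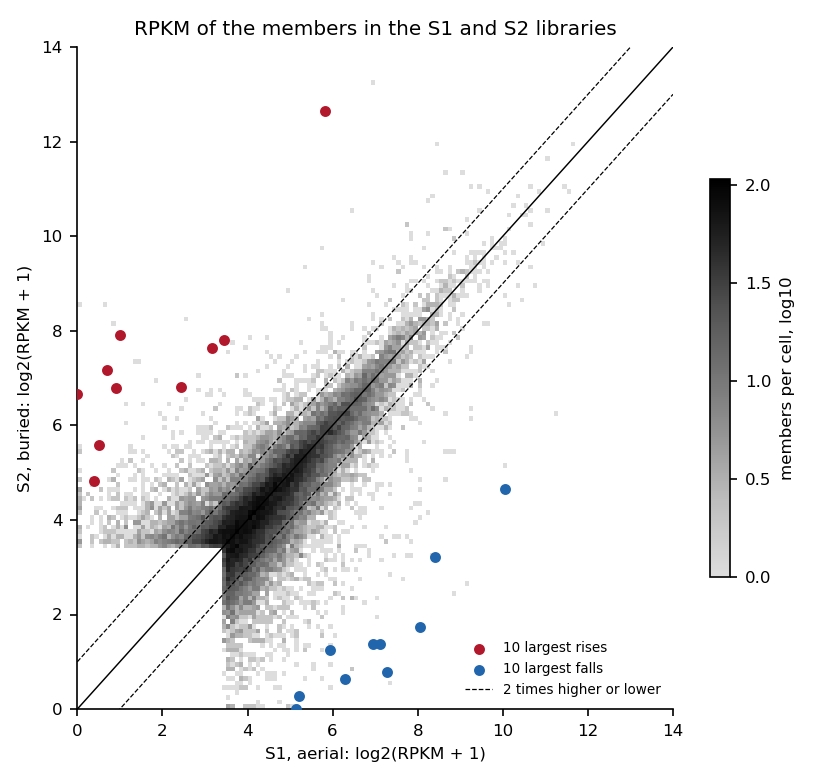
Each member by its log2(RPKM + 1) in S1 (horizontal) and S2 (vertical). Grey cells give the number of members on a log10 scale, dashed lines mark 2 times higher or lower, and red and blue points are the 10 largest rises and falls among members with an informative description and at least 50 reads; the cloud follows the diagonal, with 7.7% of members above and 9.57% below the dashed lines.

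The description limits what can be read from the members. Only 10035 (36.4%) carried an informative one, the rest being named hypothetical, unknown or predicted. The best matches were most often from grapevine (24.6%) and soybean (20.9%), and 319 (1.16%) were from peanut itself. In addition, 13634 members shared their best match with another member, so that gene copies, alleles of the 2 subgenomes and fragments of 1 transcript could not be separated. Reads of such near-identical sequences may have been divided among them, and reads of antisense or overlapping genes could not be told apart. Function groups were made by words in the descriptions and overlap in part.

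**Figure D2:**
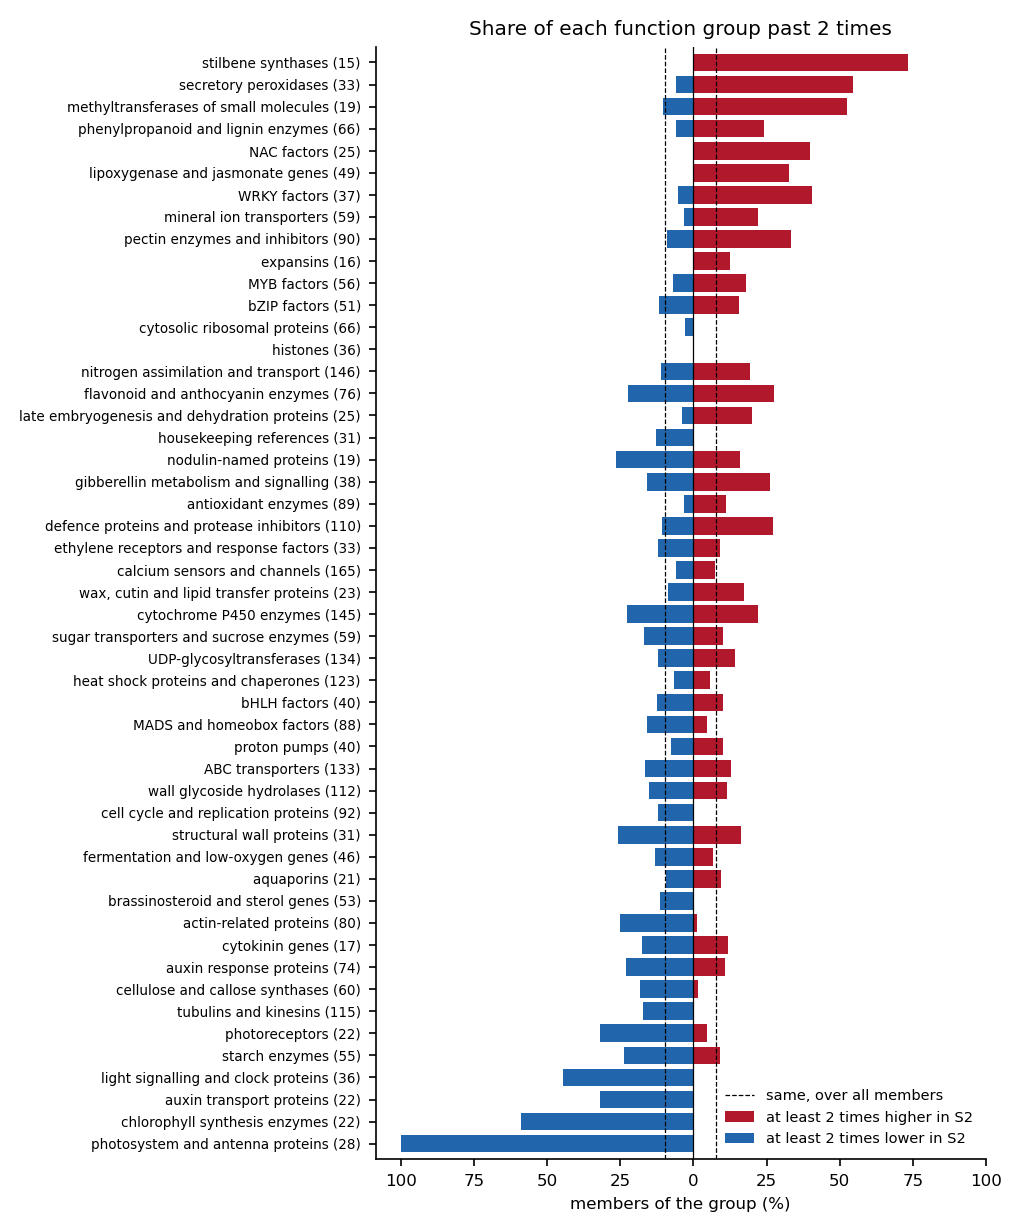
Percentage of each function group of at least 15 members that was at least 2 times higher (red, right) or lower (blue, left) in S2, with the number of members in brackets and the groups ordered by median log2 ratio. Dashed lines show the same shares over all members, 7.7% and 9.57%; stilbene synthases stand at the top and photosystem proteins at the bottom.

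Among the members, photosynthesis transcripts were lower in the buried peg almost without exception. All 28 photosystem and antenna proteins were lower in S2, with a median log2 ratio of −3.46 (−1.52 over 62 sequences without the RPKM limit), and together they took 3941 reads per 1000000 (RPM) in S1, 191 in S2 and 351 in S3. EZ723829, a chlorophyll a/b-binding protein that captures light for photosystem II, had an RPKM of 1054 in S1, 24.2 in S2 and 70.9 in S3. It was 43.5-fold lower in S2 (95% interval 37.6 to 50.7). A second sequence of the same antenna, EZ721288, went from 1047 to 35.1, and these 2 were the most abundant of the group in both libraries. EZ725459, another antenna protein, had 130.1 and 4.28, and EZ721285, subunit V of the photosystem I reaction centre, had 53.7 and 1.87. All 9 sequences described as chlorophyll a/b-binding, all 11 photosystem I subunits and all 3 plastocyanins, the copper proteins that pass electrons between the photosystems, were lower. The median RPKM of the 28 was 63.7 in S1 and 4.39 in S2, so most of them, including the 3 plastocyanins, were members only through S1. For these the direction of change was set by the membership rule, though not its size.

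Carbon fixation and chlorophyll synthesis moved the same way. All 6 carbon fixation members were lower, with a median log2 ratio of −3.25 (−1.86 over 19 sequences without the RPKM limit) and a summed 411 RPM in S1 and 31.3 in S2. EZ736179, the B subunit of the chloroplast glyceraldehyde-3-phosphate dehydrogenase of the Calvin cycle, had an RPKM of 74.6 in S1 and 3.39 in S2. The Rubisco small chain EZ723461 had 156 and 10.6, and Rubisco activase EZ734812, which keeps the enzyme in its active form, had 54.1 and 5.39. All carbon fixation members but this small chain were below the RPKM limit in S2. They were members only through S1, which set the direction of their change. Of 22 chlorophyll synthesis enzymes, 13 were lower and none was higher, with a median of −1.31 that became −0.59 over 35 sequences without that limit. Magnesium chelatase, which inserts the metal into the ring, accounted for the steepest of these, with 76.6 in S1 and 3.03 in S2 for Unigene72277 and 25.5 and 2.17 for Unigene61563. EZ723035, a protochlorophyllide reductase, which needs light for its own catalytic step, had 143 and 18. The glutamate-1-semialdehyde aminomutase Unigene55905 of the shared tetrapyrrole route, had 112 and 59.8 and was not past the limit.

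Light sensing divided by receptor class. Of 9 phototropin sequences, blue light receptors that direct bending towards light, 7 were lower and 1 was higher, with a median log2 ratio of −1.74. Unigene72084 had an RPKM of 18.7 in S1 and 1.74 in S2, Unigene9593 had 31.2 and 8.27, and phototropin 1 (Unigene19517) had 43.5 and 12.3. None of the 5 cryptochromes and none of the 7 phytochromes passed the limit in either direction. The phytochromes, which sense red and far-red light, had a median of −0.01, and the most abundant photoreceptor, cryptochrome 2 (Unigene18740), had 52.9 and 34.8. The photoreceptor group as a whole had a median of −0.59, whose sign changed among the public sequences alone, and the split by class was made after the values were seen.

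Light signalling and clock proteins counted 16 lower and none higher of 36, with a median of −0.73. JK202251, described as the ubiquitin ligase COP1, which removes light-response factors in darkness, had 27 in S1 and 1.13 in S2 with 4 reads in S2. EZ722472, an early light-induced protein of the thylakoid, had 77.5 and 7.17. Of 7 GIGANTEA sequences, which belong to the clock and to flowering control, 5 were lower, with 99.1 and 17.5 for Unigene17482 and 134 and 73.9 for the more abundant Unigene72187.

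The terms of the Gene Ontology, which also cover members without a usable description, gave the same picture. Of 339 members annotated to the chloroplast thylakoid, 174 were lower and 4 higher. Among them 204 had no informative description, of which 109 were lower. For the chloroplast stroma the counts were 29 lower and none higher of 50. Gene Ontology and description come from the same best match and are not independent of each other.

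**Figure D3:**
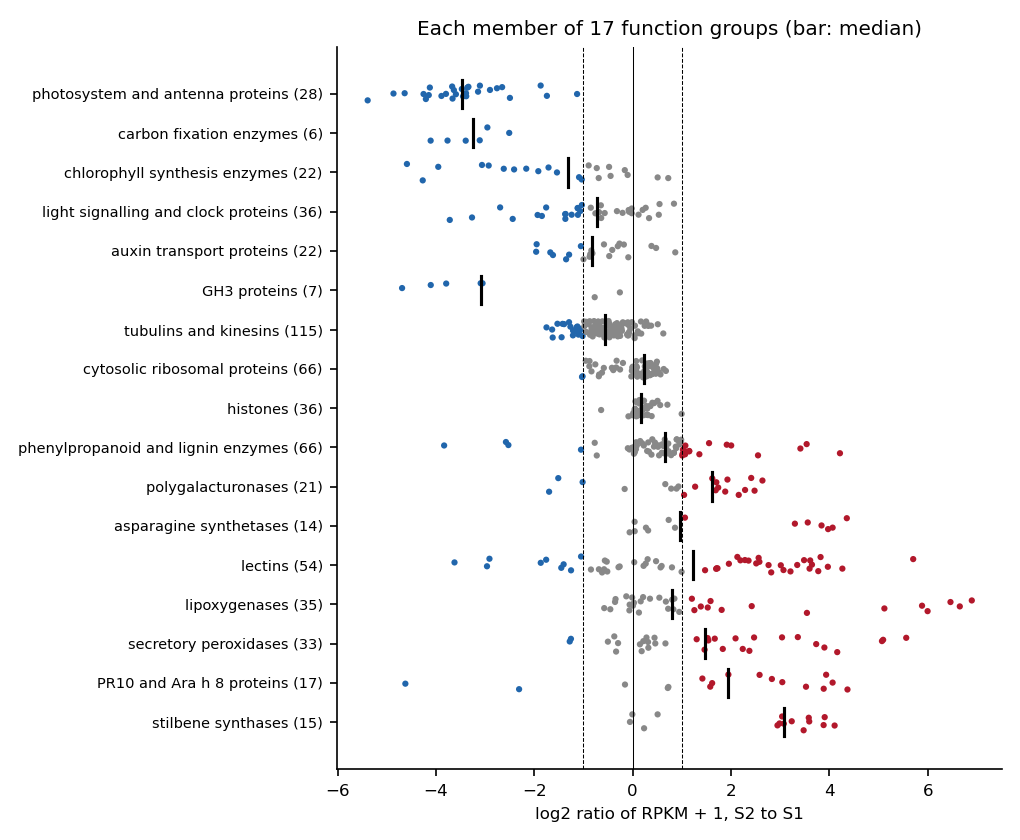
Log2 ratio of RPKM + 1 (S2 to S1) of every member of selected function groups, 1 point per sequence, with the number of members in brackets and the median as a black bar. Points past the dashed lines at 2 times are red (higher) or blue (lower); the photosystem points all lie left of the line, whereas lipoxygenases, lectins and peroxidases form a long tail to the right.

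Of 76 flavonoid and anthocyanin enzymes 21 were higher and 17 lower, a larger share than the background in both directions. The lower set held the route to red and purple pigments. The 4 chalcone synthases, which make the first flavonoid skeleton, ranged over 65.5 to 342 RPKM in S1. Their range was 16.3 to 123 in S2 and 0.736 to 8.14 in S3, and 3 of them were lower in S2. Dihydroflavonol reductase DFR1 (Unigene71925) had 259, 99.4 and 4.87, and anthocyanidin synthase 2 (Unigene71696) had 105, 35.1 and 1.14. These reductase and synthase transcripts were 2.6 and 3 times lower in S2, and at a few RPKM in S3. All 4 flavonoid 3-O-glycosyl transferases, which attach the sugar that stabilizes the pigment, were lower, with a median log2 ratio of −4.52. They were picked out after the values were seen, and with 0.726 to 3.71 in S2 they were members only through S1. Of the wider class of 16 anthocyanin and flavonoid glycosyltransferases 7 were lower and 1 higher, with a median of −0.33. Unigene51169 had 136 in S1, 1.59 in S2 and, with the pod, 0.496, an 85.6-fold difference that rests on 3 reads in S2 (95% interval 29 to 418).

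The higher set included sequences of other steps. Of 24 isoflavonoid enzymes, grouped after the values were seen, 6 were higher and 4 lower. Both chalcone isomerase 2 sequences were higher, and EZ755568 had 20.7 in S1, 147 in S2 and, with the pod, 71, a 7.1-fold difference (95% interval 5.91 to 8.58). All 3 flavonoid prenyltransferases, enzymes that add an isoprenoid side chain as in many legume phytoalexins, were higher with a median log2 ratio of 4.18. With 0.231 to 6.72 in S1, below the RPKM limit, these 3 were members only through S2. A rise in all of them was therefore set by the membership rule, and their median without the limit was not taken. GW992349 had 0.96 in S1 and 35.1 in S2, and GW990733 had 0.231 from a single read and 21.3. By contrast the isoflavone 3'-hydroxylase JK170432 had 12 in S1 and no read in S2, at least 16.1-fold lower when 3 reads are taken as the floor. These pathway steps were set out after the values were seen.

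Stilbene synthases had the highest share of members called higher among groups of at least 15. Resveratrol is the stilbene that peanut tissues make on wounding, ultraviolet light or fungal attack. Of 15 members in the group 11 were higher and none lower, and all 11 that were described as resveratrol or stilbene synthase were among them. Their RPKM lay between 0 and 3.27 in S1 and between 11 and 63 in S2. A sequence this low in S1 had to reach the RPKM limit of 10 in S2 to be a member at all, and 15 of the 40 annotated sequences did. The group median of 3.07 became 0.91 over all 40 without the limit, 1.71 with a pseudocount of 5 and 0.37 over the 4 unigenes. With the pod, in S3, the range was 1.37 to 16.9. JK202465 had 1.59 and 43.6, 27.4-fold higher (95% interval 12.3 to 75.9). GW979497, the most abundant, had 3.27 in S1, 63 in S2 and, with the pod, 16.9, and X62300 had 0.64, 23.2 and 10.4. The other 4 members carried a multi-domain description shared with 3-ketoacyl-CoA synthases and had log2 ratios of −0.05 to 0.51.

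The general phenylpropanoid route that feeds all of these, and lignin too, was moderately higher. Of 66 members 16 were higher and 4 lower, with a median log2 ratio of 0.66, and their sum was 2939 RPM in S1, 4212 in S2 and 1671 in S3. Of 16 phenylalanine ammonia-lyases, the entry enzymes, only 1 passed the limit, but their median was 0.65. Of 5 cinnamate 4-hydroxylases 4 were higher, while the most abundant, EZ727157, had 230.2 in S1 and 447 in S2 and stayed just inside the limit at a log2 ratio of 0.95. Of 11 4-coumarate:CoA ligases 4 were higher and none was lower.

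The later lignin steps varied more. Unigene19349, a cinnamyl alcohol dehydrogenase that makes lignin precursors, had an RPKM of 3.05 in S1, 46 in S2 and 5.65 in S3. The hydroxycinnamoyl transferase Unigene70187 had 2.32, 34.3 and 45.7. Laccases, which couple lignin units in the wall, divided evenly with 3 higher and 3 lower of 15. Laccase 110a (Unigene58379) had 0.806 and 32.6, whereas Unigene19057 had 96.4 and 5.84, laccase 110b (Unigene19622) had 58.8 and 9.03, and Unigene55138 had 39.9 and 6.11. Sequences of 1 enzyme class thus differed in opposite directions.

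**Figure D4:**
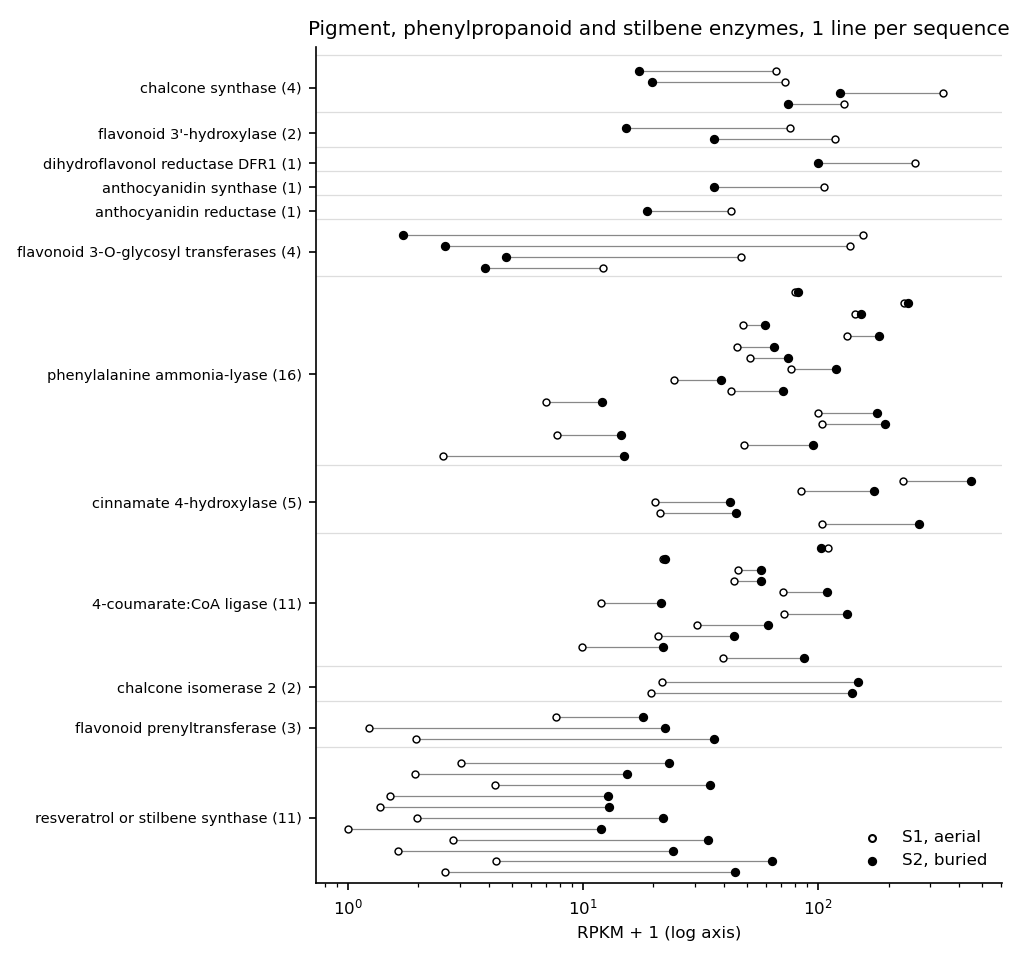
RPKM + 1 (log axis) of each pigment, phenylpropanoid and stilbene enzyme in S1 (open circle) and S2 (filled circle), 1 line per sequence, grouped by step with the number of sequences in brackets. The filled circle lies left of the open one in the anthocyanin steps and right of it in most steps from phenylalanine ammonia-lyase to resveratrol synthase.

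Small-molecule methyltransferases, which cap the hydroxyl groups of such phenolics, counted 10 higher and 2 lower of 19. The orcinol O-methyltransferase-like Unigene43152 had an RPKM of 9.36 in S1 and 85.3 in S2, and the isoflavanone methyltransferase Unigene11973 had 2.57 and 18.4. The more abundant EZ723066 went the other way, with 393 in S1, 43 in S2 and 9.15 in S3. Cytochrome P450 enzymes counted 32 higher and 33 lower of 145. CYP81E8 (Unigene71222) had 77.3 and 0.562, and CYP84A16 (Unigene15337), of a family known in Arabidopsis for a hydroxylation in lignin synthesis, had 0.276 and 14.9. Both shares of this group, 22.1% and 22.8%, were above those of all members while its median was −0.02.

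Secretory peroxidases, which use hydrogen peroxide to cross-link phenolics and wall proteins, were higher in 18 of 33 members and lower in 2. The median of 1.46 became 0.44 with best matches joined (24 matches), 0.81 without the RPKM limit and 0.67 from an RPKM of 20, and their sum was 2199 RPM in S1, 3844 in S2 and 1715 in S3. Cationic peroxidase 2 (M37637), a peanut enzyme, had an RPKM of 0.435 in S1, 47.2 in S2 and 3.26 in S3. JK188643 had 1.09, 36.3 and 1.58, and Unigene66888 had 6.13, 105 and 16.1. All 3 were highest in S2. The most abundant one, GW970681, had 686, 2187 and 555, and was 3.19-fold higher in S2 (95% interval 3.05 to 3.33). The exceptions were EZ748306, with 104 and 42.3, and Unigene53610, with 230.2 and 95.9.

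Wall polysaccharides showed pectin and cellulose apart. Of 90 pectin enzymes and inhibitors 30 were higher and 8 lower. Their median log2 ratio was 0.32 and lay between 0.01 and 0.43 in 11 other settings. Polygalacturonases, which cut the de-esterified pectin chain, contributed 13 higher of 21 with a median of 1.62, and pectin methylesterases 15 higher of 33 with 0.68. Both of these subgroups were made after the values were seen. The polygalacturonase Unigene9139 had an RPKM of 4.05 in S1, 30.5 in S2 and 4.85 in S3. The pectinesterases Unigene49629 and JK186781 had 2.14 and 38.8, and 4.21 and 46.5, respectively. The 3 polygalacturonase-named members that were lower, among them GW983970 with 580.3 and 178 and GW965633 with 214 and 74.3, are all described as the non-catalytic beta subunit of polygalacturonase 1, a protein that binds the enzyme in the tomato wall. Of 60 cellulose and callose synthases, in contrast, 1 was higher and 11 lower with a median of −0.54. That median was −0.28 over 92 sequences without the RPKM limit and −0.35 over the 27 of at least 500 bases. The most abundant of the 60, Unigene60139, had 304 and 203, and the most changed, Unigene55900 of the cellulose synthase-like class A, had 54 and 7.33.

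Proteins that loosen or rebuild the xyloglucan network moved less as classes. Of 16 expansins, which let walls slip under turgor, 2 were higher and none lower, GW990293 with 26.2 and 55.6 and JK179707 with 10.9 and 22.8. Only 5 xyloglucan endotransglucosylases were members, and 2 of them moved strongly in opposite directions. EZ741165 had 34.2 from 284 reads in S1 and no read in S2 or S3, at least 91.4-fold lower with the floor of 3 reads. EZ737038 had 2.07 in S1, 18.5 in S2 and 2.31 in S3. The most abundant, EZ735377, had 1306, 715 and 84.6 and stayed inside the limit between S1 and S2.

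Structural wall proteins differed strongly in both directions. Of 31 members 5 were higher and 8 lower. All 5 sequences described as extensin/nodulin were lower, with a median of −5.19, and EZ721122 had an RPKM of 336 in S1, 8.25 in S2 and 18.7 in S3. With 0.422 to 8.25 in S2, below the RPKM limit, these 5 were members only through S1. The direction of their change was therefore set by the membership rule, though not its size. They shared 1 best match and were picked out after the values were seen. The proline-rich protein EZ721152 had 132, 23.5 and 0.16. Meanwhile another proline-rich protein, GW964573, had 327, 1857 and 904, 5.68-fold higher (95% interval 5.37 to 6.01), and the glycine-rich JK186943 had 59.2, 215 and 8.83. Among 112 wall glycoside hydrolases 13 were higher and 17 lower. The beta-glucosidases D7 (EZ741086) and D2 (Unigene30824) had 261 and 24.7, and 444 and 42.8. The endo-mannanase JK195448, which cuts mannan chains, had 0.917 in S1, 21.6 in S2 and 765 in S3, so that its S2 level was small beside the one seen with the pod.

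Surface lipids gave single large changes without a group trend, 4 higher and 2 lower of 23 wax, cutin and lipid transfer proteins. Unigene18234, a lipid transfer protein precursor, had 0.316 from 1 read in S1, 27.5 in S2 and none in S3. EZ756152, described as an isoallergen of the same family, had 14.1 in S1 and no read afterwards, at least 22.2-fold lower in S2. EZ742210, the most abundant, had 552 and 532 and differed by less than counting error.

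Stress and defence proteins held several of the largest ratios. Of 110 defence proteins and protease inhibitors 30 were higher and 12 lower, although the median was 0.05. The trypsin inhibitor EZ721698 is not among these 110. It belongs to 24 trypsin and other protease inhibitors, grouped after the values were seen, of which 5 were higher and 1 lower. It measured 55.1 RPKM in S1 (95% interval 47.5 to 63.6) and 6449 in S2 (6362 to 6537), with 1206 in S3. It was 117-fold higher in S2 (95% interval 101 to 136) and was the second most abundant member of S2 after a sequence of unknown function. The abundant Kunitz inhibitor EZ729144 had 1015 and 947, so that not every inhibitor was higher. JK193580, an inhibitor of cysteine proteases, had 154 and 10.8.

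Ara h 8 and related pathogenesis-related class 10 (PR10) proteins, small ligand-binding proteins homologous to the birch pollen allergen, counted 12 higher and 2 lower of 17 with a median of 1.95. EZ726452 had an RPKM of 343 in S1, 3961 in S2 and 1486 in S3, which is 11.5-fold higher (95% interval 11 to 12.1). JK188729 had 4.41, 111 and 32.8, and EZ722084 had 15.8, 229 and 129. The ripening-related member EZ744743 had 227, 8.28 and 1.44. Of the members past the limit, all but 2 were therefore higher in the buried peg. The groups in this paragraph and the next were chosen after the values were seen.

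Lectins, proteins that bind sugars and are abundant in legume tissues, took 6870 RPM in S1, 20057 in S2 and 13678 in S3. Of 54 members 27 were higher and 9 lower. EZ735837 had an RPKM of 394 in S1, 2685 in S2 and, with the pod, 2463, and DQ889583, a mannose- and glucose-binding lectin, had 523, 2551 and 868. EZ741413, matching a peanut agglutinin structure, had 4.74, 299 and 11.7. The galactose-binding GW977414 had 230.4 and 17.8. Polyphenol oxidases, the enzymes behind tissue browning, counted 7 higher and 3 lower of 19, led in abundance by GW980858 with 86.6, 1495 and 601. Copper amine oxidases, which release hydrogen peroxide from polyamines, counted 5 higher and none lower of 19, and JK184483 had 592, 2052 and 227. Their median log2 ratio was −0.07, and the ratio interval lay above 1 for 7 of them and below 1 for 7.

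Chitinases, which cut the chitin of fungal walls, differed in both directions. Of 16 sequences 9 were higher and 4 lower. The class I chitinase GW960675 had an RPKM of 0.327 from 1 read in S1 and 18.3 in S2, and the class Ib chitinase Unigene61596 had 20.5 and 182. GW966703 had 625 and 81.9. JK197443, a disease resistance response protein, had 123 and 1.58, 78.1-fold lower (95% interval 35.6 to 214). Defensin D2 (EZ721453), the most abundant of the 110 defence proteins and protease inhibitors counted above, had 1195 and 1571. The largest ratio of any member with an informative description, without regard to the sharing of best matches, was an apyrase: Unigene1708, a fragment of 173 bases, had 0.836 from 1 read in S1, 277 in S2 and 180.3 in S3. Matches to oomycetes and protists were found for 7 members, with 1092 reads in S1 and 879 in S2.

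Lipoxygenases oxidize fatty acids at the start of the jasmonate route and others. Of 35 members 14 were higher and none lower. This group and that of the other jasmonate genes below were made after the values were seen. The wider group of 49 lipoxygenase and jasmonate genes had a median log2 ratio of 0.61. That median was 0.27 with best matches joined, 0.29 from a length of 500 bases and 0.19 among public sequences alone. From 3 reads, GW978495 had an RPKM of 1.01 in S1, 238 in S2 and, with the pod, 33.8, and the ratio of 236 had a 95% interval of 80.4 to 1148. Unigene63603 had 0.622, 142 and 25.6, and Unigene23164 had no read in S1, then 99.6 and 21.2, at least 36.2-fold higher in S2. The abundant JK186994 had 2736, 2151 and 468, and the group sum was 8582 RPM in S1 and 8199 in S2. The summed level of the class was thus close in both libraries while 14 of its sequences were higher. Of 15 other jasmonate genes 3 were higher, all of them allene oxide cyclases.

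**Figure D5:**
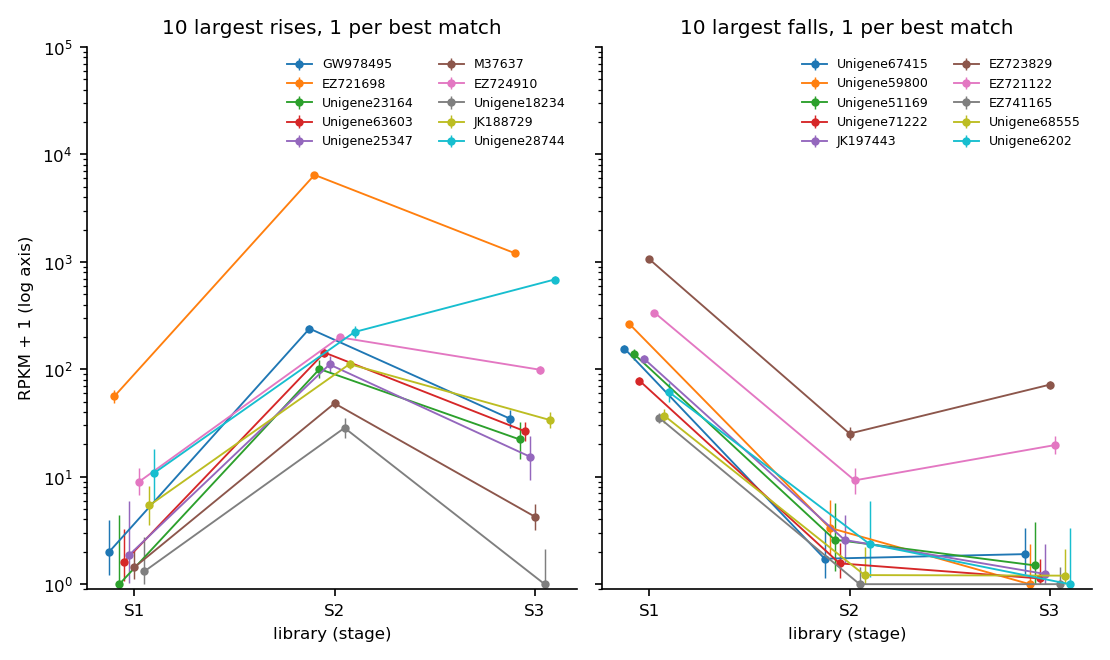
RPKM + 1 (log axis) in S1, S2 and S3 of the 10 largest rises (left) and 10 largest falls (right) among members with an informative description, with 95% exact Poisson intervals as vertical bars. Most of the rises peak in S2 and are lower in S3, except the asparagine synthetase Unigene28744, while most of the falls stay near 1 in S3.

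Other protective proteins moved singly. Of 89 antioxidant enzymes 10 were higher and 3 lower, with a median of 0.07. The glutathione transferase Unigene67702, of a family that conjugates toxic compounds, had an RPKM of 7.28 in S1 and 42.9 in S2. The peroxiredoxin EZ721455, which reduces peroxides, had 85.1, 21.1 and 16.6, and the abundant catalase EZ721054 had 1486, 1380.4 and 1936. Late embryogenesis and dehydration proteins, which accumulate in drying tissues and seeds, had 5 higher and 1 lower of 25. That single lower one, EZ731492 of group 9, had 214, 11.8 and 4.04, while dehydrin EZ723109 had 591, 687 and 891.

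Auxin genes pointed mainly downward. Of 74 auxin response proteins 8 were higher and 17 lower, and of 22 auxin transport proteins 7 were lower and none higher, with a median of −0.83. The median of the transport proteins was −0.41 over 29 sequences without the RPKM limit. The efflux carrier Unigene18987, which moves auxin out of cells, had an RPKM of 105 in S1, 26.3 in S2 and 15.4 in S3. The influx carrier Unigene68717 had 166, 67.1 and 15.6. Of 7 GH3 proteins, enzymes that conjugate auxin or jasmonate to amino acids, 5 were lower with a median of −3.09. This group was made after the values were seen. The summed level of the 7 fell less, from 136 to 72.7 RPM, and reached 165 RPM with the pod. The least changed of them had a log2 ratio of −0.26. Unigene6202 had 59.9 and 1.36, 43.9-fold lower from 2 reads in S2 (95% interval 11.8 to 368), and Unigene17195 had 21 and 0.593. Of 9 small auxin-induced proteins 7 were lower, with 27.4 and 7.08 for Unigene15754. Both auxin-repressed proteins were higher, and EZ721480 had 60.3, 252 and 1386.

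Gibberellin 20-oxidases, which make the active hormone, were lower in both sequences, with 159, 61.2 and 10.5 for EZ722351. Ent-kaurenoic acid oxidase (EZ735840), an earlier step, had 43.2 in S1 and 15.2 in S2. Of 7 gibberellin 2-oxidases, which inactivate the hormone, 2 were higher, and Unigene16197 had 3.35, 18.1 and 113. Of 10 gibberellin receptor sequences 6 were higher and none lower, with 19.7, 91.5 and 188 for Unigene47773. Of 8 DELLA proteins, the growth repressors removed when gibberellin binds its receptor, 2 were lower, and the abundant Unigene66671 had 169.6 and 91.5.

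Of 10 enzymes of ethylene synthesis 6 were higher and none lower, with a median of 1.2. That median was 0.38 over the 7 members with at least 50 reads and −0.10 over the 3 public sequences. The 1-aminocyclopropane-1-carboxylate (ACC) synthase Unigene67374, which makes the precursor, had an RPKM of 10.6 in S1 and 41.4 in S2. The ACC oxidase EZ731991 had 4.67 and 15.4, but the most abundant oxidase, EZ723123, had 134 and 125, with a ratio interval that included 1. Ethylene receptors and response factors had 3 higher and 4 lower of 33. The response factor GW958376 had 5.53, 43.3 and 1.58. Of 17 cytokinin genes 2 were higher and 3 lower, and the 3 abscisic acid genes did not pass the limit. Among 53 brassinosteroid and sterol genes 6 were lower and none higher, and the abundant EZ730963, a homologue of the pea dwarfing gene LKB, had 256 and 139.

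Nitrogen genes were led by asparagine synthetase, which makes the main nitrogen transport compound of many legumes. Of 146 nitrogen assimilation and transport members 28 were higher and 16 lower. Of 14 asparagine synthetases, grouped after the values were seen, 7 were higher and none lower, with a median log2 ratio of 0.96. Unigene28744 had an RPKM of 9.87 in S1, 221 in S2 and 684 in S3, Unigene54208 had 11.7, 212 and 756, and JK180262 had 10.9, 186 and 584. These 3 kept the same order of libraries, with S3 above S2, and were 17.1 to 22.4 times higher in S2 than in S1. Another asparagine synthetase, EZ741436, had 65.9, 121 and 86. Nitrate reductase 2 (Unigene71387), the first step from nitrate, had no read in S1 and 13.2 in S2, at least 33.8-fold higher, and 2 of 7 nitrite reductases were higher. In contrast, 9 of 15 NADH glutamate synthases, the enzymes that pass nitrogen on from glutamine, were lower and none higher, with 66.4 and 27 for Unigene70560. The most abundant glutamine synthetase, EZ724846, had 296 and 495.

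Mineral ion transporters counted 13 higher and 2 lower of 59, a share above the background upward and below it downward. The heavy metal transport protein JK182587 had an RPKM of 1.6 in S1 and 21.3 in S2. The potassium transporter JK183204 had 2.74 and 16.5, and the high-affinity sulfate transporter EZ746384, which takes up sulfate in roots, had 1.38 in S1 and was 7.25-fold higher in S2 (95% interval 3.83 to 15.1). All 4 phosphate transporters were higher, with 8.77 and 36.2 for Unigene71461. With 3.34 to 8.77 in S1, below the RPKM limit, they were members only through S2. The direction of their change was therefore set by the membership rule, though not its size. The potassium channel AKT1 homologue (Unigene12173) had 20.6 and 7.24. Of 5 metallothioneins, small metal-binding proteins, 4 were higher, among them EZ726573 with no read in S1, 24.9 in S2 and no read in S3. Aquaporins had 2 higher and 2 lower of 21, proton pumps 4 and 3 of 40, and ABC transporters 17 and 22 of 133. Among ABC transporters Unigene68358, similar to a pleiotropic drug resistance transporter of Arabidopsis, had 35.4 in S1 and 107 in S2. The multidrug and toxin extrusion (MATE) transporter Unigene68555, outside these groups, had 35.9 from 173 reads in S1 and 0.215 from 1 read in S2.

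Of the invertases, all 5 acid invertases, which split sucrose in the vacuole, were lower with a median of −2.49, and Unigene72190 had an RPKM of 127 in S1, 21.8 in S2 and 4.21 in S3. A cell wall invertase, Unigene52508, had 1.98, 36.3 and 18.1, whereas the other one, Unigene62998, had 11.6 in S1 and 7.02 in S2 and was not past the limit. The transporters Unigene10908 and Unigene11650, a hexose carrier, had 7.92 and 55.9, and 6.89 and 27.1. Sucrose synthases, which split sucrose in the cytosol, had 1 higher and 3 lower of 18, and the abundant GW992499 had 1039.6 and 803. Of 55 starch enzymes 5 were higher and 13 lower, with a median of −0.62 whose sign changed among the public sequences alone. Granule-bound starch synthase EZ721487 had 12.9 and 41, whereas the glucan water dikinase Unigene11382 of starch breakdown had 74.6 and 31.9. Of 46 fermentation and low-oxygen genes 3 were higher and 6 lower. An alcohol dehydrogenase, Unigene58915, had 12.6 in S1, 135 in S2 and 117 in S3. Of all 15 sequences with alcohol dehydrogenase in their description 3 were lower and 2 higher. The larger of those 2 rises is the cinnamyl alcohol dehydrogenase Unigene19349 of the lignin steps above, which shares only the words.

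Of 115 tubulins and kinesins 20 were lower and none higher, with a median of −0.55. Kinesins, motors of the spindle and of vesicle transport, made up 17 of those 20, among them Unigene16348 with an RPKM of 100.2 in S1 and 29.1 in S2. The alpha tubulin EZ730116 had 1080.5 and 915. Of 37 myosins 14 were lower and 1 higher, while actin EZ723877 had 464 and 508. Of 92 cell cycle and replication proteins 11 were lower, a share near the 9.57% of all members, and none higher, with 11.3 and 3.7 for the cyclin A homologue Unigene69363. None of the 36 histones passed the limit and their median was 0.18. Of 66 cytosolic ribosomal proteins 2 were lower, with a median of 0.22, so that hardly any of these groups passed the limit.

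Transcription factors differed by family. Of 37 WRKY factors, a family known for defence and senescence responses, 15 were higher and 2 lower. WRKY20 (GW967793) had an RPKM of 2.55 in S1, 13.7 in S2 and, with the pod, 24.4, and WRKY48 (JK209928) had 23.2, 75.5 and 105. Of 25 NAC factors, which act in wall thickening, stress and ageing, 10 were higher and none lower, with 6.07, 32.1 and 20.2 for Unigene12334. MYB factors had 10 higher and 4 lower of 56. MYB92 (Unigene68608) had 1.24, 13 and 18.3, and the most abundant, MYB173 (EZ744058), had 113, 253 and 350.5. These named WRKY and MYB members were all higher still in S3.

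Of 40 basic helix-loop-helix factors 4 were higher and 5 lower. Unigene65534, one of them, had 172 in S1, 11.6 in S2 and 0.793 in S3, 14.8-fold lower in S2 (95% interval 10.8 to 20.8). The MYC2-like EZ721111, a homologue of the jasmonate response factor, had 13.8 and 33.6. MADS and homeobox factors had 4 higher and 14 lower of 88, with 3 of 7 knotted-like factors, regulators that keep meristem cells undetermined, among the lower ones. KNOX2 (Unigene46891) had 167, 40.4 and 3.89, and MADS4 (Unigene14027) had 31, 7.97 and 0.544. The bZIP factors had 8 higher and 6 lower of 51. Calcium sensors and channels, with 12 higher and 10 lower of 165 and a median of 0.00, and heat shock proteins and chaperones, with 7 and 8 of 123, had shares at or below those of all members in both directions.

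Markers of other tissues and reference genes were examined in the same way. Among 31 housekeeping members none was higher and 4 were lower, and these 4 were all glyceraldehyde-3-phosphate dehydrogenases, among them the B subunit of the chloroplast enzyme given above. Actin EZ723877 belongs to the reference set as well. Of 11 seed storage and oil body proteins 1 was higher, the conglutin EZ724139 with an RPKM of 61.5 in S1 and 193 in S2, and the most abundant, an Ara h 1 sequence (EZ731610), had 709, 803 and 1092. The 2 members found with leghemoglobin words were described as leghemoglobin reductases, and neither passed the limit. The single pollen-named member had 13.4 in S1 and 9.1 in S2. The part of other cell types in the differences above was not tested.

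Some of the strongest differences belong to members without a usable name. EZ730167, described as unknown, was the most abundant member of S2, at 119 RPKM in S1 (95% interval 109 to 129) and 9832 in S2 (9742 to 9923), with 1938 in S3. It was 82.9-fold higher (95% interval 76.4 to 90.2). EZ721690, a predicted protein, had 0.558, 385 and 615, and Unigene25731 had no read in S1 and then 377 and 215, at least 144-fold higher in S2. In the other direction EZ755942 had 2509 in S1, 75.7 in S2 and, with the pod, 1.32, and EZ757792 had 578, 5.41 and no read. The first of these was among the 10 most abundant members in the aerial peg and low with the pod. Other abundant sequences described as unknown were not past the limit, EZ725074 with 3113 and 3946, and JK179307 with 2149 and 3288.

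The RPKM limit that defines the members did not fall at a natural gap. Just inside it were Unigene70442, with 3.64 in S1 and 10.0001 in S2, and Unigene546, with 10.0007 and 9.06. Just outside were Unigene45896, with 9.999 and 2.44, and EZ744159, with 6.65 and 9.998. Members whose higher library lay between 10 and 11 numbered 1629, of which 165 were higher and 168 lower. Sequences between 9 and 10 numbered 1753, of which 139 were higher and 181 lower. The shares called higher and lower were 9.97% and 13.3% under 50 reads, 7.18% and 8.50% from 50 to 200, 6.29% and 7.77% from 200 to 1000, and 7.94% and 9.51% above.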

How the data were processed

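RNA of 3 gynophore stages was sequenced, 1 library each. The authors aligned reads to assembled unigenes and public peanut sequences and deposited, per sequence and library, the count of reads placed at a single position, the RPKM made from that count, its length and the percentage of its bases covered. The sources used here do not name the aligner or its settings. RPKM recomputed from the counts deviated by at most 8.42e-09 of the value.

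Members were sequences with an nr description and an RPKM of at least 10 in S1 or S2. Ratios were taken of RPKM + 1, with a limit of 2 times. Exact Poisson and Clopper-Pearson intervals at 95% came from the counts, and 3 reads served as floor where a library had none. Scripts ran in Python 3.11.15 with scipy 1.17.1, pandas 2.3.3, numpy 2.4.6 and, for figures, matplotlib 3.10.9, and were tested on simulated data.

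Members and lists were chosen with earlier results of these data known. Groups were found by words in the description, so a group can hold a protein that only shares a word. Named sequences, 1 per best match, were the 10 largest rises and 10 largest falls with at least 50 reads in the higher library, up to 3 in each direction and the most abundant of each group, and the 10 highest RPKM values. Named sequences outside that rule, the enzyme families and pathway steps were chosen after the values were seen. Sequences without a description were counted only in the closing section, and the proteomic results of the study were not used here.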

Additional observations from a re-analysis of the deposited data

Results flagged for a closer look

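A signal also lies in sequences that the comparison left out because they had no protein match. Of 7736 such sequences that reached 10 RPKM in either library, 744 (9.62%) were at least 2 times higher in S2 and 961 (12.4%) at least 2 times lower. EZ743883 had 2697 reads in S1 and none in S2, or an RPKM of 398 and 0. Unigene9959 had an RPKM of 1.82 in S1 and 229.8 in S2.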

How the results depend on the processing

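No paired analysis was possible because 1 library per stage leaves nothing to pair. Across 14 other settings lower members did not always outnumber higher ones, and the counts of members higher and lower were 1111 and 1058 with the ratio interval wholly past 2 times, 4444 and 4452 without an RPKM limit, 1178 and 1535 from an RPKM of 20, 1144 and 1254 from a length of 500 bases, 1408 and 1546 with best matches joined, and 724 and 743 among public sequences alone, whose median log2 ratio was 0.074. Unigenes alone gave 1402 higher and 1899 lower, with a median log2 ratio of −0.13. A pseudocount of 5 gave 1496 and 1644, and members with an informative description, a setting added after the data were seen, gave 964 and 1085. Most of these settings keep fewer or more sequences by their construction. Scaling by upper quartiles moved log2 ratios by 0.07 and by the median of ratios by 0.02. Of 19 group medians past 0.5 on the log2 scale, 4 changed sign in some setting (photoreceptors, ethylene synthesis and starch enzymes among public sequences, GDSL lipases without an RPKM limit), the one for ethylene synthesis to −0.10 among 3 sequences. The cause was not tested. Ratios of named sequences moved beyond counting error in 134 of 1140 repeats and none reversed. These repeats changed only the scaling or the pseudocount, to 0.1 or 5. Neither change could reverse a ratio past 2 times, so the lack of reversals carries no information. Depth limits low members, where 1 to 4 reads decide a ratio.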
